A study of Caenorhabditis elegans with 2 samples.

Results

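Autosomal promoter peaks of UNC-62 were the peaks on chromosomes I to V with a summit in the promoter window of a protein-coding transcript, which reached from 1000 bp before its 5' end to 200 bp behind it. Their number was 322, of 597 autosomal peaks and 843 peaks in all in the list thresholded on the irreproducible discovery rate (IDR). UNC-62 was mapped by chromatin immunoprecipitation and sequencing (ChIP-seq) in whole young adult Caenorhabditis elegans, males and females pooled, at 4 days. The worms were strain OP600, with the unc119(ed3) allele and the transgene wgIs600, which expresses UNC-62 with TY1, EGFP and FLAG tags and carries an unc119 marker. There was 1 group of 2 biological replicates and no second strain, age or treatment, so the data describe where binding was found and how it was shared between 2 samples. The antibody label names unc-62 while the sample description names the eGFP fusion, so tagged and native UNC-62 cannot be told apart. Nor can reads of the unc-62 locus and of the transgene copy. Signal is the authors' own strength value for each peak. Read depth is unknown, and in whole worms binding in few cells and weak binding in many cannot be told apart.

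UNC-62 is the worm protein of the Meis and Homothorax type, transcription factors with a homeodomain. They bind DNA with partners of the Pbx class, of which CEH-20 is a worm member, and with Hox proteins, and the core of the Meis-type site reads TGACAG. In worms unc-62 is known for embryonic patterning, cell migration and the control of yolk protein genes in the intestine. Many worm genes lie close together, some share an upstream region with a neighbour on the opposite strand, and many messages are trans-spliced, so an annotated 5' end is often not where transcription begins.

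The stretches of 101 bp around several summits show what promoter peaks have and do not have in common, and all but that of act-5 are strong. All are read 5' to 3' on the strand of the nearest gene, from the RefSeq copy of WBcel235, which is ce11, and none overlaps an annotated exon. The first 3 hold the Meis-type word TGACAG, in capitals. They belong to the gap between srh-70 and ceh-99 (chrII:12518963-12519063, minus strand), to oac-20 (chrV:15978405-15978505, plus strand) and to C03A7.13 (chrV:5192639-5192739, minus strand). The window between srh-70 and ceh-99 holds 2 copies, which start at bases 21 and 95, and the other windows hold 1 copy each.
srh-70 and ceh-99: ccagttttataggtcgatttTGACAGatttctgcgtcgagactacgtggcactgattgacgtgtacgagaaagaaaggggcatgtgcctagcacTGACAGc
oac-20: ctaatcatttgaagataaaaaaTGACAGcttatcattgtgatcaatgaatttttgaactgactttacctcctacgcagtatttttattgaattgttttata
C03A7.13: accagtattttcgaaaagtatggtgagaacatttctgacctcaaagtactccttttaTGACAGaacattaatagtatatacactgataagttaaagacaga
The next 4 peaks hold no TGACAG in the same window although all of them are strong. They belong to cdc-48.1 (chrII:10563516-10563616, minus strand), ceh-20 (chrIII:6979087-6979187, plus strand), rpl-3 (chrIII:3867534-3867634, plus strand) and the gap between rpl-15 and K11H12.8 (chrIV:654882-654982, minus strand). The 2 ribosomal protein windows are 56.4% and 57.4% G or C, against 26.7% at oac-20.
cdc-48.1: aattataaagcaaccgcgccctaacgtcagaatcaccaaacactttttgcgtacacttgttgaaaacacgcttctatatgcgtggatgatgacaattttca
ceh-20: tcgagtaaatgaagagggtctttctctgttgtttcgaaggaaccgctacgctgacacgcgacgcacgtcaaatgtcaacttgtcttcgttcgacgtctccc
rpl-3: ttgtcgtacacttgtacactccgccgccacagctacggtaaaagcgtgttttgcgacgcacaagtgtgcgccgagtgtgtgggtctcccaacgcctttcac
rpl-15 and K11H12.8: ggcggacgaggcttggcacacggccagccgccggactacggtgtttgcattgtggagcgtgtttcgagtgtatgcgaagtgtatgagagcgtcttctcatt
The last pair show the other words that were frequent under these peaks. The peak at act-5, the actin of intestinal microvilli (chrIII:13606250-13606350, minus strand, signal 33.6), has the reverse complement of TGATAA in capitals. GATA factors bind this type of word. A GAGAGA in the act-5 stretch is left in lower case. An intronic peak of zfp-1 (chrIII:8797517-8797617, plus strand, signal 50.4) has GAGAGA in capitals, in 8 overlapping matches. The reverse complement of TGATAA in the zfp-1 stretch is left in lower case. TGATAA, on either strand, is also left unmarked at oac-20 and C03A7.13.
act-5: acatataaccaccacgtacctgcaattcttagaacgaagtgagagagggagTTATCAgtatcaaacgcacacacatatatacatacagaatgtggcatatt
zfp-1: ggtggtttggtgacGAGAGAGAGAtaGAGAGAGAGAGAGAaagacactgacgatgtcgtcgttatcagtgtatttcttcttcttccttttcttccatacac

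The 3 words just shown were more frequent under promoter peaks than over promoters at large. TGACAG lay within 50 bp of the summit, on either strand, in 61 of 322 peaks (18.9%, exact 95% interval 14.8 to 23.7%), while 3.3% of 209088 tiles of the same length over all autosomal promoter windows held it. TGATAA was found in 93 peaks (28.9%, 24.0 to 34.2%) against 10.1% of tiles. GAGAGA was found in 65 peaks (20.2%, 15.9 to 25%) against 6.02% of tiles. The 275 other autosomal peaks held TGACAG in 25.5%, TGATAA in 30.2% and GAGAGA in 18.9%, so none of the 3 was particular to promoter peaks. None of these 3 words was in 145 promoter peaks (45.0%), against 81.6% of tiles, and all 3 were in 3 promoter peaks.

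The windows of the promoter peaks also had a higher G and C content than the tiles, with a median of 41.6% against 34.7%. The other autosomal peaks had 40.6%. The part of G and C content in these shares was not tested. The other words searched stood as follows. TATAAA, the TATA box, was in 29 peaks (9.01%), below the 12.2% of tiles, and TGATNNAT, a word for Pbx and Hox proteins together, was in 25 peaks (7.76%) against 8% of tiles. AGATAA, the other GATA factor type word, was in 18 peaks (5.59%) against 6.34%. TGATTGAC, the word for Pbx and Meis proteins together, was in 12 peaks (3.73%) against 0.271%. The E-box CACGTG was in 16 peaks (4.97%) against 1.82%, and the forkhead type word GTAAACA in 10 (3.11%) against 1.21%. TGATAA can overlap TGATNNAT, and TGATTGAC can overlap TGACAG, by several letters, and a match is a description of the letters only.

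**Figure D1:**
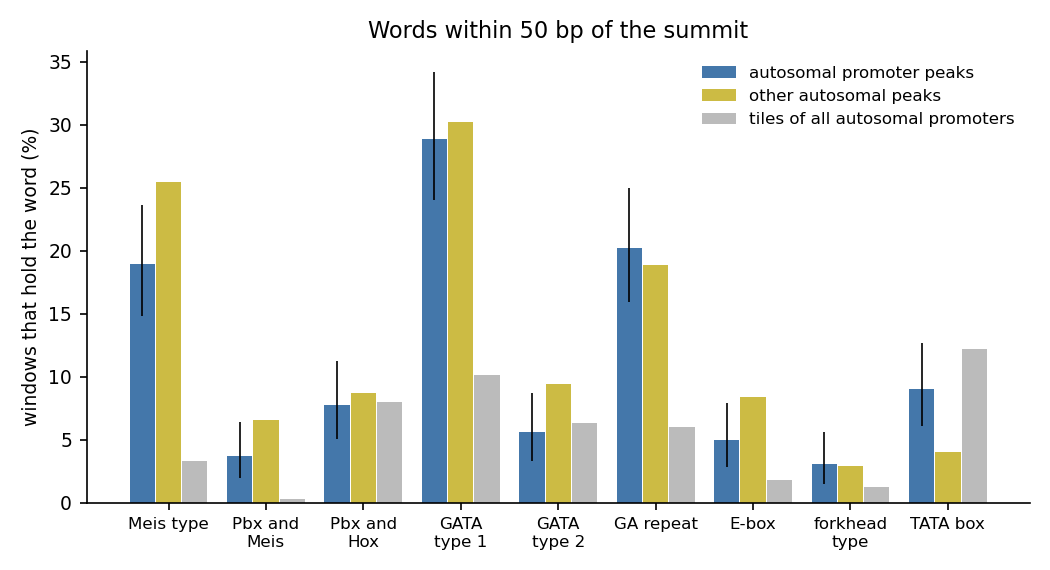
Share of 101-bp windows (%) that hold each word on either strand, for the 322 autosomal promoter peaks (blue, with exact 95% intervals), the 275 other autosomal peaks (yellow) and 209088 tiles of all autosomal promoter windows (grey). The Meis-type word, GATA type 1 (TGATAA) and the GA repeat stand at 18.9%, 28.9% and 20.2% of the promoter peaks and at 3.3%, 10.1% and 6.02% of tiles, and the TATA box stands lower than in tiles.

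TGACAG gathered at the summits. Its density was 2.30 matches per kb within 25 bp of the summits of promoter peaks and 0.264 per kb at 200 to 300 bp from them, beside 0.336 per kb over all promoter tiles. The 275 autosomal peaks outside promoter windows held it in 25.5% of cases. The word was also more frequent at the top of the list, in 24 of the 81 strongest promoter peaks (29.6%) and in 13.6%, 18.8% and 13.8% of the following groups of 81, 80 and 80. Ranked by replicate 1 alone the strongest group held it in 26.3% and the other groups in 15% to 18.8%, and ranked by replicate 2 alone these shares were 29.6% and 11.3 to 18.5%. TGATAA went the other way, with 21.0% in the strongest group and 30.0 to 33.8% in the others. By replicate 1 the strongest group held TGATAA in 28.8% and the next in 21.3%, so this order was not the same in both replicates.

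**Figure D2:**
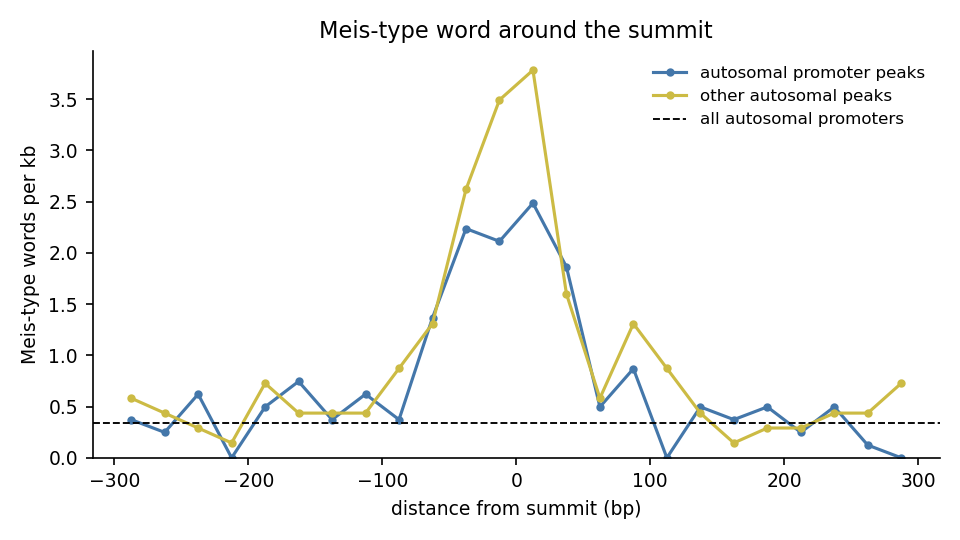
Matches of TGACAG per kb (y axis) in 25-bp steps of distance from the summit (x axis, bp) for autosomal promoter peaks (blue) and other autosomal peaks (yellow), with the density over all autosomal promoter tiles, 0.336 per kb, as a dashed line. Both curves rise within about 50 bp of the summit.

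The 25 strongest promoter peaks began with the gap between srh-70, a predicted chemoreceptor, and ceh-99, a homeobox gene, with signal values of 46.2 in replicate 1 and 92.7 in replicate 2 and 137 in the IDR-thresholded list. The peak at -159 bp from cdc-48.1, where negative distances are upstream, an ATPase that extracts ubiquitylated proteins, had 43.6 and 83.9, and 129 in the list. The peak at K09D9.1, a gene with a DUF4130 domain (V, 4024948 to 4025030), had 48.3 and 66.3, and 113 in the list. All of these were higher in replicate 2, as were most promoter peaks. The fourth peak lay 9 bp inside vrp-1, named vitellogenin regulating protein, with Y54G2A.28 on the other side (IV, 3012436 to 3012755). Its values of 48.7 and 66.4 were close to those of K09D9.1.

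The genes of UNC-62 and of its partner CEH-20 were among them. The peak at -747 bp from ceh-20 (III, 6978977 to 6979296) had 27.3 in replicate 1 and 82.6 in replicate 2. The gene unc-62 had 3 promoter peaks, the most of any gene (V, 4499364 to 4499683 for the strongest). They had 13.1 and 70.2 at 36 bp inside the start nearest to it, 29.8 and 21.0 at -396 bp and 4.08 and 29.1 at 142 bp. The peak at -396 bp was higher in replicate 1 and the others were higher in replicate 2, with ratios of replicate 1 to replicate 2 of 0.186 and 0.140. The strongest of them held TGACAG and the others did not. The vitellogenin gene vit-6, which encodes a yolk protein and is the autosomal member of its family, had 26.8 and 45.1 at a peak at -140 bp (IV, 8260857 to 8261176), with TGATAA but no TGACAG in its window.

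Other genes at the top have varied roles. The peak between icd-1, a subunit of the nascent polypeptide-associated complex, and vps-32.1, of the ESCRT machinery for membrane scission (II, 6588984 to 6589303), had 24.6 and 61.8. The peak of tlp-1, a zinc finger transcription factor of tail patterning (IV, 13704133 to 13704452), had 15.7 and 66.6. The peak of pyk-1, a pyruvate kinase of glycolysis, lay 175 bp inside a start and had 30.3 and 49.3. Metabolic enzymes among the 25 also included C30G12.2, a short-chain dehydrogenase (signal 93.7), lap-2, an aminopeptidase (72.2), C53D5.5, a gamma-glutamyltranspeptidase (72.9), and C03A7.13, a glucuronosyltransferase (77.5). Gene regulators included pdtf-1, which shares a peak with the C3H1 zinc finger gene T26A8.4 (78.2). The rest were fbxc-58, an F-box gene (99.6), oac-20, an acyltransferase-like gene (81.9), ttr-23, of the transthyretin-related family (72.8), tasp-1 with K01G5.10 (71.7), B0041.5 with B0041.12 (71.5), F59B1.8, a gene with a kinase-like domain (75.5), Y47H10A.5, a decapping nuclease (72.0), C47A4.1, annotated as a mariner transposase (80.9), F56C9.10, with a BCAS3 domain (70.7), and the uncharacterised Y18D10A.4 (94.3). The 4 promoter peaks narrower than the common 320 bp, at srh-70, cdc-48.1, K09D9.1 and fbxc-58, all stood among the 6 strongest.

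Over all 322 promoter peaks the signal had a median of 39.2 and quartiles of 34.3 and 48.2, with 31.2 to 137 as its range, and the 275 other autosomal peaks had a median of 41.0 and reached 241. In the replicate lists, 320 of the 322 overlapped a peak of replicate 1 and all 322 a peak of replicate 2. The 2 without a partner in replicate 1 were those of cdk-7, a kinase of transcription and the cell cycle, and pho-9. The median was 15 in replicate 1 and 25.9 in replicate 2, on scales not stated to be shared. The median ratio of replicate 1 to replicate 2 was 0.558, and replicate 1 had the higher value at 29 of 320 peaks (9.06%) and at 28 of 273 autosomal peaks elsewhere (10.3%). Across promoter peaks the replicates' values had a Spearman's rho of 0.138 and a Pearson's r of log2 values of 0.201 (n = 320 peaks that share 2 libraries). All of these peaks had passed a threshold on both replicates together, which restricts the pairs of values that can occur, so these coefficients describe the kept peaks and do not measure how well the replicates match. Of the 322, 153 were among the 843 strongest peaks of both replicates, 57 of replicate 1 alone, 96 of replicate 2 alone and 16 of neither.

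Some promoters differed widely between the replicates. The highest ratio was at F08G2.4, an uncharacterised gene, with 26.6 in replicate 1 and 9.97 in replicate 2. It was followed by eef-1G, an elongation factor subunit, with 24.7 and 12.3, csnk-1, a casein kinase I gamma, with 29.9 and 17.1, and cct-7, a chaperonin subunit, with 27.1 and 15.8. At the other end fbxl-5, an F-box gene, had 4.93 and 45.5. C51E3.10 had 3.44 and 30.3, egl-44, a TEA domain transcription factor, 4.43 and 37.8, and clec-72, a C-type lectin gene, 3.41 and 25.6. With 2 samples there is no estimate of the error of a single promoter's value.

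**Figure D3:**
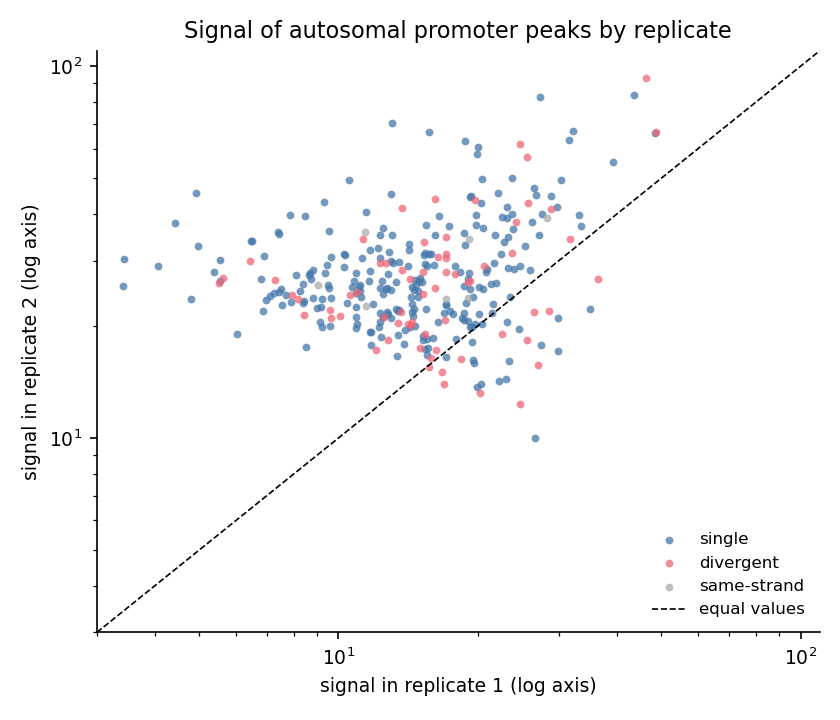
Signal of each autosomal promoter peak in replicate 1 (x, log axis) and replicate 2 (y, log axis), 320 peaks found in both lists, coloured by promoter class, with a dashed line of equal values. Most points lie above the line and 29 lie below it.

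Within the window, summits were most frequent in the 300 bp upstream of starts. The median distance to the nearest start in the window was -243 bp, with quartiles of -542 and -88 bp, from -988 to 193 bp. The rule kept only distances from -1000 to 200 bp, so a negative median was largely set by it. With a window of 500 bp upstream to 100 bp downstream the median was -173.5 bp. The 300 bp upstream of the start held 155 peaks (48.1%, exact 95% interval 42.6 to 53.7%), nearly evenly spread with 53, 51 and 51 per 100 bp. The next 200 bp held 47 and the range from -1000 to -501 bp held 88, and 32 summits (9.94%) lay at or inside the start. Signal hardly moved with distance, since its medians were 38.3 at -1000 to -501 bp, 39.9 at -500 to -201 bp, 41.4 at -200 to -1 bp and 37.9 from 0 to 200 bp. Across the 322 peaks Spearman's rho between absolute distance and signal was -0.09. In replicate 1 it was -0.03 and in replicate 2 it was -0.12.

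**Figure D4:**
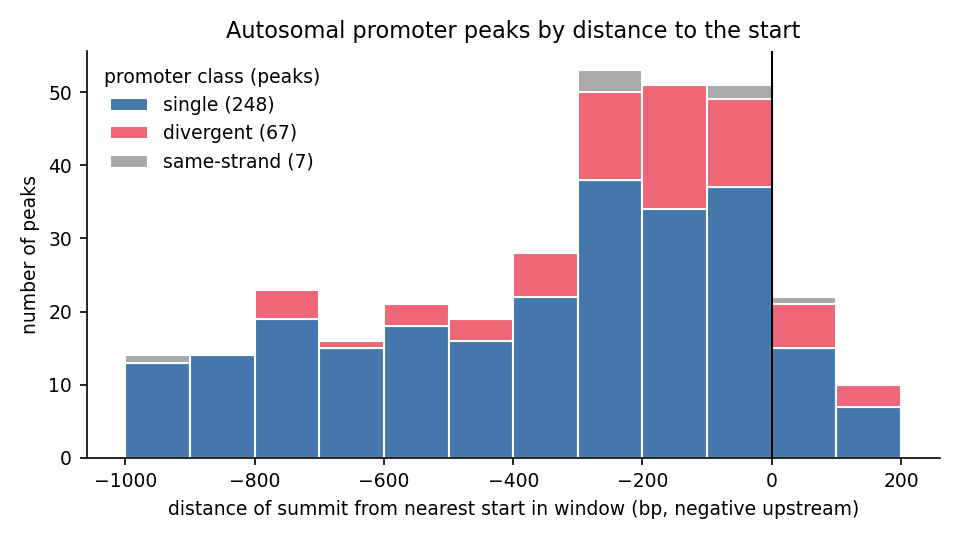
Number of autosomal promoter peaks (y axis) per 100 bp of distance of the summit from the nearest start in its window (x axis, bp, negative upstream), stacked by class. The 3 bins upstream of the start hold 53, 51 and 51 peaks, and bins beyond -400 bp hold 14 to 23.

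The limits of the window cut through a continuum. The members farthest upstream were those of bath-44 (-988 bp, signal 38.6), H41C03.3 (-971 bp, 46.1) and ceh-99 (-968 bp, 137), a peak counted through srh-70 as well. Just outside were peaks of mstr-1 (-1004 bp, 50.5), uda-1 (-1004 bp, 43.9) and daf-14 (-1015 bp, 37.9). mstr-1 had another peak inside the window (-171 bp, 32.9). On the downstream side aco-2 (193 bp, 31.6), hpo-11 (183 bp, 32.4) and praf-3 (177 bp, 41.6) were inside, and asic-2 (211 bp, 57.3), lfe-2 (250 bp, 37.4) and ins-12 (354 bp, 32.7) were outside. The strongest promoter peaks of the pooled list that the IDR threshold left out had signal values just under its lowest of 31.2, at clec-196 (31.1), egl-27 (31.1) and seu-1 (31.0). egl-27 had another promoter peak that was kept (-695 bp, 34.0).

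Most summits, 227 (70.5%), were intergenic. Another 65 (20.2%) were in introns, 18 in 5' UTRs, 8 in coding sequence and 4 in 3' UTRs. Small RNA genes lay within 100 bp of 9 summits (2.80%), 5 of them snoRNA genes, and of 7 of the 275 other autosomal summits (2.55%). The peak between srh-70 and ceh-99 was among the 9, at 73 bp from a snoRNA gene. Internal starts accounted for most of the intronic ones, as 54 peaks (16.8%) lay in windows of downstream starts alone, and 47 of these 54 were intronic against 18 of the 268 peaks at the most upstream start of a gene. The strongest at internal starts were the first of unc-62 and a peak of zfp-1, which encodes a zinc finger chromatin protein. zfp-1 had 33.5 and 37.3 in replicates 1 and 2 at the stronger of its 2 intronic peaks and 21.7 and 29.6 at the other, both higher in replicate 2. zip-2, a bZIP factor of the pathogen response, had 23.7 and 40.1 at an intronic peak, and lgg-2, an Atg8 homologue of autophagy, had 15.5 and 37.3. Internal-start peaks were also found at saeg-1, csnk-1, ccch-1, ugt-64, vhp-1, egl-44 and fbxl-5, with signal values between 42.5 and 52.1.

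Those with 2 peaks included signalling and transcription genes. jun-1, a bZIP factor of the AP-1 type, had 17 and 21.7 in replicates 1 and 2 at -172 bp from a start and 8.25 and 24.9 at -304 bp from another. crh-2, a CREB-type factor, had 8.79 and 28.3 at -156 bp and 15.4 and 17.4 at -618 bp. egl-30, the Gq alpha subunit, had 9.02 and 25.8 at -12 bp and 13.9 and 17.9 at -382 bp. In each of these pairs both peaks were higher in replicate 2, as were most promoter peaks. The other genes were vhp-1, a MAP kinase phosphatase, rme-1, an endocytic recycling gene, sqv-8, a glycosyltransferase, osta-3, a solute transporter, pyk-1, lgg-2, zip-2, zfp-1, btbd-10, ZK822.10, Y111B2A.12, T26A8.4 and pdtf-1. In the whole set, 27 promoter peaks (8.39%) lay within 2000 bp of another.

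A summit in the windows of 1 gene (single) was the commonest case, with 248 peaks (77.0%), and 67 peaks (20.8%, 16.5 to 25.7%) lay in windows of genes read away from each other (divergent). The remaining 7 lay in windows of several genes on the same strand. The median signal was 39.3 for single, 38.0 for divergent and 41.6 for same-strand peaks, well inside each class's quartiles. In replicate 1 single and divergent peaks had medians of 14.6 and 16.2, and in replicate 2 they had 26.1 and 25.3, so the order turned between replicates. The ratio of replicate 1 to replicate 2 had a median of 0.539 at single and 0.627 at divergent peaks. Of divergent peaks, 12 of 67 (17.9%, 9.61 to 29.2%) were higher in replicate 1, and of single peaks 17 of 246 (6.91%, 4.08 to 10.8%).

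At divergent promoters the starts were 633 bp apart at the median (50 to 1697 bp). The nearer start lay at a median of -166 bp from the summit and the farther at -429 bp, and 38 of 67 summits were within 200 bp of a start. The strongest after srh-70 and ceh-99 and the vrp-1, icd-1, T26A8.4 and tasp-1 peaks already given lay between rpl-12 and lin-54, a gene of the DREAM complex (IV, 13240535 to 13240854). Its values were 36.5 in replicate 1 and 26.7 in replicate 2. The peak of iff-2, which encodes the translation factor eIF5A, and F54C9.14 (II, 8561291 to 8561610) had 31.8 and 34.2, and that of ceh-38, a ONECUT homeobox gene, and malt-1 (II, 6951370 to 6951689) had 25.7 and 42.8. TGATAA was in 13.4% of divergent and 33.1% of single peaks, GAGAGA in 11.9% and 21.8% and TGACAG in 17.9% and 19.4%, differences that were not tested.

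Counted per gap between neighbouring protein-coding genes, so that a shared peak counts once, 84 of the 6673 head-to-head and tandem gaps of up to 1000 bp (1.26%) held a promoter peak. Head-to-head gaps held a peak in 40 of 1639 cases (2.44%, 1.75 to 3.31%) and tandem gaps in 44 of 5034 (0.874%, 0.636 to 1.17%). For gaps of up to 250 bp the shares were 1.66% and 0.149%, and for 251 to 500 bp they were 2.96% and 1.12%. For 501 to 1000 bp they were 2.46% (1.49 to 3.82%) and 1.52% (1.01 to 2.21%), with intervals that overlap. Genes of operons, which follow each other in tandem, were not separated.

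The 322 peaks fell in windows of 382 of 17242 autosomal protein-coding genes (2.22%), with 400 pairs of a peak and a gene. The share was highest on chromosome III, with 89 of 2640 genes (3.37%, 2.72 to 4.13%), and lay between 1.95% and 2.09% on the other autosomes. With each chromosome cut into 3 equal lengths, in the middle length 201 of 6568 genes had a peak (3.06%, 2.66 to 3.51%), against 181 of 10674 in the outer lengths (1.70%, 1.46 to 1.96%). Genes with a peak were longer, with a median of 2462.5 bp against 1964 bp over all genes, and had several starts in 46.3% of cases against 26.4%, which itself widens the window. The upstream gap had a median of 1092 bp against 943 bp. The share of all autosomal peaks in promoter windows was 53.9% (49.8 to 58.0%), and on the X chromosome it was 47.2% (40.5 to 54.1%), with intervals that overlap. The autosomal share was 38.5% with the window of 500 bp upstream and 70.2% with 2000 bp upstream. The share of chromosome length that the windows cover is not given here, so these shares cannot be set against an even spread of peaks.

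Target genes were grouped by 37 lists, read against the 2.22% of all genes. Each list was a set of name prefixes, so a count covers genes with those names and not every gene of that function, and the genes given below as outside a list were found from their RefSeq products after the values were seen. Ribosomal protein genes stood highest of the lists with 10 or more genes, with 16 of 79 (20.3%, 12 to 30.8%). The small subunit genes rps-1, rps-3, rps-12, rps-15, rps-19, rps-20, rps-22 and rps-30 and the large subunit genes rpl-3, rpl-12, rpl-14, rpl-15, rpl-20, rpl-35, rpl-36.A and rpl-39 had peaks. Of these 16, 13 lay at divergent promoters, against 132 of all 382 target genes (34.6%). Of the 16, 8 had the nearest start and the rest shared the peak with a nearer neighbour. The strongest after rpl-12 were rpl-3, with 35.0 in replicate 1 and 22.2 in replicate 2, rpl-15, with 24.2 and 38.0, and rps-19, with 20.6 and 29.0. Of the 15 peaks, 4 were higher in replicate 1, against 29 of 320 (9.06%) over all promoter peaks. None of the 15 held TGACAG or GAGAGA within 50 bp of the summit.

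Other genes of protein synthesis and turnover followed in part. Translation factors had peaks at 3 of 37 genes (8.11%), iff-2, eef-1G and eef-1B.1, all at divergent promoters, and no aminoacyl-tRNA synthetase of 32 had a peak. The chaperone list had 3 of 84 (3.57%), cct-7, hsp-90 and hsp-110, each with a neighbour's start nearer to the summit. Outside it, bag-1, a BAG family chaperone regulator (49.5), and C34C12.8, a GrpE homolog (35.5), had single promoter peaks at -185 and -161 bp. hsp-90 had 9.61 in replicate 1 and 21.0 in replicate 2, and hsp-110 shared values of 15.8 and 16.4 with rpn-3, the proteasome gene (1 of 33). The ubiquitin conjugation list had 2 of 37, ubc-25 and ubc-3, and outside it let-70, an E2 enzyme, shared a divergent peak with a signal of 41.2. The respiratory chain list had 5 of 36 (13.9%, 4.67 to 29.5%): atp-3, of the ATP synthase, cox-5A, cox-5B and cox-6B, of cytochrome c oxidase, and nuo-1, of complex I. Outside the list, the complex I genes nduc-2, which shares the cox-6B peak (43.8), and ndua-8 (32.1) also had peaks. atp-3 had 22.6 in replicate 1 and 19 in replicate 2, and cox-5A 14.6 and 26.6. By the strongest peaks of either replicate alone 3 of the 36 respiratory chain genes had a peak, and by replicate 2 alone 1 of the 37 translation factors did. Over all 17242 genes, 396 had one by replicate 1 alone and 371 by replicate 2 alone. The proton pump V-ATPase had 2 of 17, vha-8 and vha-1, and glycolysis 1 of 16, pyk-1.

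Membrane trafficking genes had 5 of 85 (5.88%), vps-32.1, vps-60, sec-61.G, sec-61.B and trpp-10, and small GTPases 2 of 39, rheb-1, an activator of TOR, and rab-7, of late endosomes. Both small GTPase genes shared a divergent peak whose summit was nearer to the neighbour. Cytochrome P450, UGT and GST genes, which modify foreign and endogenous small molecules, had 9 of 171 (5.26%, 2.43 to 9.76%), and C03A7.13, a glucuronosyltransferase, lies outside the list. The strongest was ugt-41, with 19.7 in replicate 1 and 43.6 in replicate 2, followed by ugt-49, with 23.2 and 34.8, ugt-64, with 13 and 29.9, and the pair cyp-33C7 and cyp-33C6, which share 7.29 and 26.6. All 8 peaks of this list were higher in replicate 2, but so were most promoter peaks, since replicate 1 was higher at only 29 of 320 (9.06%). By the strongest peaks of replicate 1 alone, 4 of the 171 genes had a peak, beside 396 of all 17242 genes. By replicate 2 alone the counts were 8 and 371. Lipid metabolism had 4 of 103 (3.88%), among them fat-6, a stearoyl-CoA desaturase, with 5.53 and 26.1, and acs-4, an acyl-CoA synthetase, with 10.9 and 19.7. The others were acl-14 and dgat-2, an acyltransferase of triglyceride synthesis. Membrane transporters had 2 of 82, aqp-9 and haf-7, and the autosomal vitellogenin list held vit-6 alone.

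Among regulators, ceh homeobox genes had 3 of 45 (6.67%, 1.40 to 18.3%), ceh-99, ceh-20 and ceh-38. Nuclear hormone receptors had 5 of 246 (2.03%), near the background. They were nhr-49, a regulator of fat metabolism, with 12.1 in replicate 1 and 32.5 in replicate 2, nhr-232, nhr-105, nhr-57 and nhr-68. The list of other transcription factor families had 3 of 110, zip-2, dmd-7 and atf-7. Its name prefixes miss factors with other names that had peaks, among them tlp-1, jun-1, crh-2 and egl-44, all given above, and xbp-1, a bZIP factor of the unfolded protein response (51.5). Of the 3, atf-7, a bZIP factor of immunity, was higher in replicate 1 with 20.0 and 13.7. The protein kinase list had 2 of 52, cdk-7 and mpk-2, and kinases outside it that had peaks include csnk-1, mekk-3 (45.8), spk-1 (44.2), unc-43, the calcium and calmodulin-dependent kinase (40.1), pkg-2 (37.7) and mnk-1 (33.5). The cell cycle list had 2 of 41, cdc-48.1, taken into the list by its name, and cyd-1, cyclin D. The chromatin regulator list had 1 of 55, swsn-7. Outside it, epc-1, named enhancer of polycomb-like (45.8), F19B2.5, with an SNF2 domain (43.3), and pbrm-1, with a bromo domain (33.9), had peaks. Histones had 2 of 76, his-37 and the H2A variant gene htz-1. Reads of histone genes such as his-37 can come from near-identical copies.

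Chemoreceptor, C-type lectin, neuropeptide and insulin, F-box, MATH and BTB, and digestive protease and lysozyme genes were near or under the background. Chemoreceptors had 8 of 1331 (0.601%, 0.260 to 1.18%), and RefSeq names srlf-7, a member of the 8, as an SXP/RAL-2 protein and not a receptor. The strongest after srh-70 were srz-62, with 19.3 in replicate 1 and 44.3 in replicate 2, and srh-83, which shares the ugt-41 peak. Peaks lay at 2 of 237 C-type lectin genes (0.844%), clec-72 as above and clec-150, and at 1 of 107 neuropeptide and insulin genes (0.935%), ins-7, whose peak had 17.1 and 30.4. F-box, MATH and BTB genes had 8 of 378 (2.12%), led by fbxc-58, with 32.1 and 67.1, fbxa-55, fbxa-59 and fbxa-60, which lie at -219 to -252 bp. Digestive proteases and lysozymes had 1 of 57, lys-2. Cytoskeleton and muscle genes, a structural list, had 3 of 58 (5.17%), the tubulin genes tbb-2 and tba-2 and act-5, and 5 by the strongest peaks of replicate 2 alone and 1 by those of replicate 1 alone. Of all 17242 genes, 371 and 396 had a peak in these settings.

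No promoter peak of the IDR-thresholded list was found in 10 of the 37 lists. Cuticle collagens were the largest of them, with 0 of 149 (upper exact bound 2.45%), a bound above the background, followed by ligand-gated channels with 0 of 66, major sperm proteins with 0 of 53, RNA polymerase II and Mediator with 0 of 46, DAF, antioxidant and TOR genes with 0 of 45 and pre-mRNA splicing with 0 of 42. Argonaute and small RNA pathway genes had 0 of 39, nuclear pore and import 0 of 35 and cell death 0 of 23, and the tenth list was that of the aminoacyl-tRNA synthetases. With so few genes these counts do not set the lists apart from all genes. They are not counts of whole functions either: B0507.3, named a Mediator subunit (61.5), the splicing factor genes syf-2 (34.0) and mog-1 (31.8) and rheb-1 of the TOR pathway had peaks and lie outside these lists. The zeros also hold only at the IDR threshold. imb-3, of the nuclear pore and import list, had a pooled promoter peak of 30.9, just under the lowest kept signal of 31.2. In the relaxed pooled list 5614 of 17242 genes (32.6%) had a promoter peak. Of tissue marker genes, act-5 of 7 for intestine, mec-3, a homeobox gene of touch neurons, of 13 for neurons and cgh-1 of 16 for the germline had a peak. mec-3 had 20.8 in replicate 1 and 27.9 in replicate 2, act-5 had 12.7 and 21.8, and cgh-1, an RNA helicase, 11.2 and 25.7. None of 7 hypodermis, 7 body muscle or 6 pharynx markers had a peak. Since 2.22% of all autosomal genes had one, counts over so few markers set no tissue apart.

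**Figure D5:**
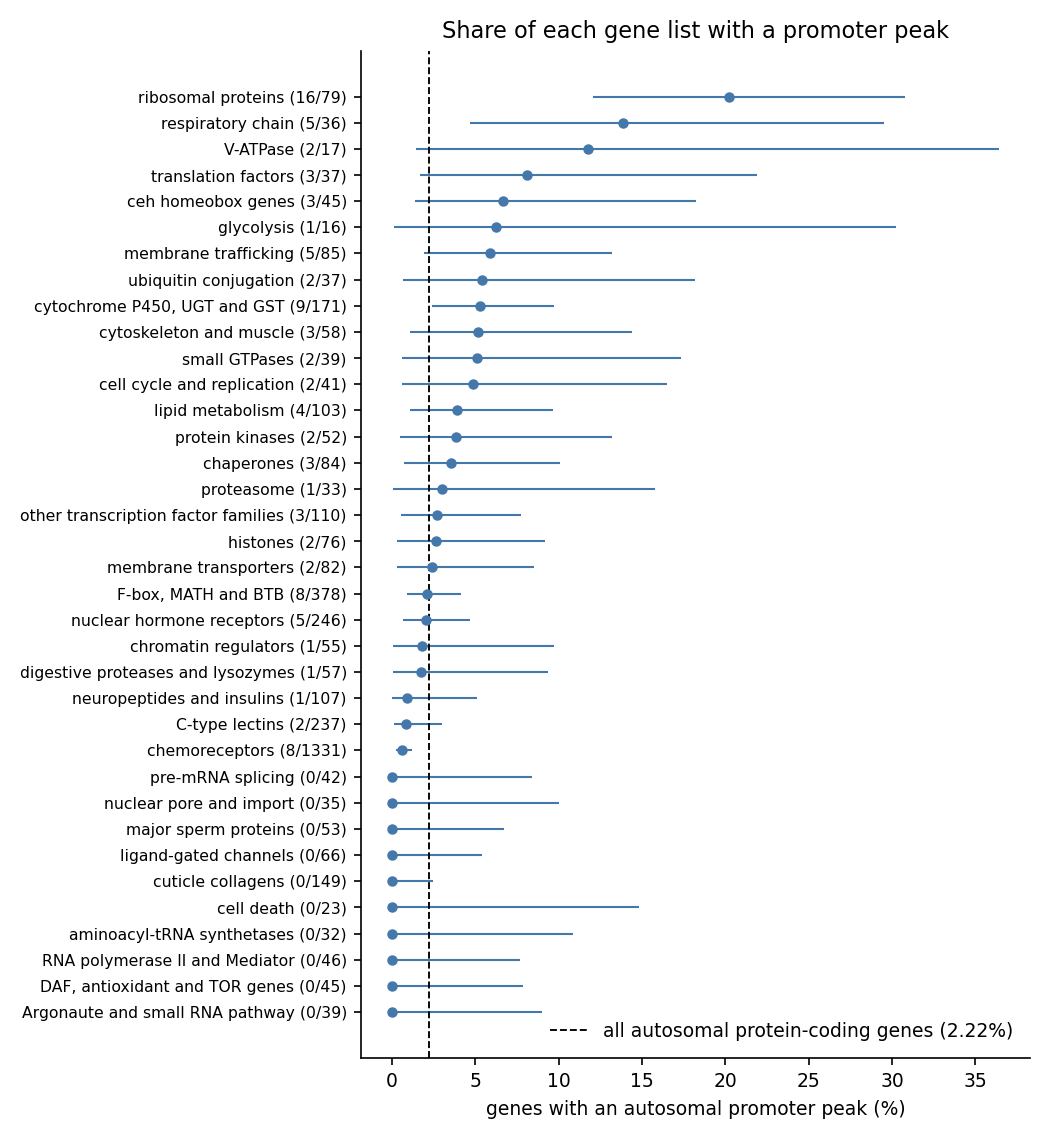
Share of the genes of each list with an autosomal promoter peak (x axis, %), with exact 95% intervals, for the lists with 10 or more autosomal genes, with counts in brackets and the 2.22% of all autosomal protein-coding genes as a dashed line. Ribosomal protein, respiratory chain and cytochrome P450, UGT and GST genes have intervals above the line, and chemoreceptors have one below it. Genes that share a peak, such as cyp-33C7 and cyp-33C6, count separately. The intervals are not corrected for the number of lists, and differences from the line were not tested.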

How the data were processed

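The data were ChIP-seq peak lists from 1 group with 2 biological replicates. README texts deposited with the lists say that each replicate's list used its reads with a control, that the pooled list used both replicates, and that the IDR-thresholded list was made from these lists. The aligner and peak caller were not given in the sources used here. In each list the deposited signal column is the authors' strength value per peak. It ranks peaks within a list, and it was also set side by side, as ratios and correlations, between the replicate lists, whose scales are not stated to be shared. The −log10 of the q-value as deposited was 3.40 for each of the 843 peaks and ranked none. The relaxed lists held 30000 peaks (replicate 1), 28092 (replicate 2) and 19023 (pooled). They reach into background, so a partner in a replicate list alone says little. Read depth is unknown, and intervals are exact Clopper-Pearson 95% intervals for counting of peaks or genes.

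Starts came from Ensembl release 115 on WBcel235 (29326 distinct autosomal starts), products and sequence from RefSeq, coordinates are ce11, 1-based. A summit counted for every gene whose window held it. A replicate's value was that of its strongest peak overlapping by at least 1 bp. The 9 words were searched on both strands, in 101-bp windows and in tiles of all autosomal promoter windows. The members, the 37 lists (patterns of gene names), the words and the alternatives were chosen with earlier results of these data known, and the lists support nothing independently. No test was made over peaks or genes, since neither is a replicate. Named genes were those of the 25 strongest promoter peaks, the 8 strongest divergent peaks, up to 4 per list by signal, the 4 highest and 4 lowest replicate ratios, the peaks at the window limits and genes with several peaks; the other genes named for internal starts, the remaining members of short lists and the tissue markers were added after their values were seen. The window assignment was tested on simulated data, where all 400 planted summits were recovered. Alternatives were other windows, the stronger part of the list, each replicate alone, 1 start per gene, the nearest start alone, peak midpoints, a stricter overlap and wider word windows. Computation was in Python 3.11.15 with pandas 2.3.3, numpy 2.4.6, matplotlib 3.10.9 and scipy 1.17.1. The sequence of 1 peak is not reported here.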

Additional observations from a re-analysis of the deposited data

How the results depend on the processing

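With a window of 500 bp upstream to 100 bp downstream, 38.5% of autosomal peaks lay in promoter windows and 39 were divergent, and with 2000 bp upstream 70.2% did and 116 were. In the stronger part of the IDR-thresholded list there were 154 promoter peaks, 185 target genes, 32 divergent peaks and 46 genes of the lists in place of 97. Using the strongest peaks of each replicate alone, the median signal was 15.7 without replicate 2 and 26.3 without replicate 1, the number of promoter peaks was 326 and 313, and ribosomal protein genes with a peak numbered 22 and 12. All genes with a peak numbered 396 and 371. The share with TGACAG was 24.5% within 100 bp of the summit, against 6.50% of tiles of that length, in place of 18.9% against 3.3% within 50 bp. Counting the nearest start alone, ribosomal protein genes fell to 8, genes of the chaperone list to 0 and lipid metabolism genes to 1, and 307 genes had a peak. With 1 start per gene, 268 peaks and 338 genes remained. Peak midpoints gave 322 peaks and 67 divergent ones, and an overlap of at least 50% of the peak found 317 of 322 in both replicate lists in place of 320. Unknown read depth limits every value, and 2 replicates allow no error for a single promoter. No paired analysis was possible because the series has 1 group.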
